A study of Mus musculus with 4 samples.

Results

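Ribosome biogenesis is the making of ribosomal RNA and its assembly with ribosomal proteins in the nucleolus. The genes described here are 40 mouse genes of that process, taken by name from a list that covers RNA polymerase I, nucleolar proteins and chaperones, the box C/D and box H/ACA small nucleolar ribonucleoproteins (snoRNPs), and factors of small and large subunit maturation. All 40 were on the array under their current symbol, with 56 probes, and 39 were bright enough to test, among 15961 tested genes. The exception was Utp18.

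The cells were B cells from spleens of male mice, purified by magnetic sorting and cultured to day 3 with 10 µg/mL anti-IgM and 10 µg/mL anti-CD40, which engage the antigen receptor and CD40. One genotype was C57BL/6 (labelled WT) and the other Ackr4-deficient (labelled Ackr4ko), where Ackr4 encodes an atypical chemokine receptor that takes up chemokines. The mice were 71 to 77 days old. Each genotype had 2 arrays, 1 from each of 2 experiments that used different donors, so every array of total RNA is a bulk sample. The labels do not say which part of Ackr4 is deleted, nor how many mice gave each culture. With 2 arrays against 2, the smallest p that an exact permutation test without pairing allows is 0.333. The p-values below come from limma fitted across all tested genes.

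RNA polymerase I transcribes the ribosomal RNA precursor in the nucleolus. Box C/D and box H/ACA snoRNPs modify that precursor, the small subunit processome cleaves and folds it, and a separate set of factors builds the large subunit. Lymphocytes that are activated to divide enlarge their nucleoli and make more ribosomes, and many genes of this process carry the E-box CACGTG near their start and are known targets of Myc.

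All 4 arrays shared 1 slide and 1 scan, so neither is a batch. Their 75th percentile of processed signal ran from 740 to 1277, and 0 spots were saturated. The array labelled WT replicate 2 stood apart: 6.24% of its spots were outliers against 1.79% to 2.12% on the others, its highest local background signal was 292 against 61 to 76, and 42.2% of its probes were well above background against 49.5% to 54.9%. Among the 224 spots of the members, 8 to 10 per array were outliers. The 6 B cell markers passed the background test on every array. So did 4 of 6 T cell, 4 of 6 macrophage and monocyte, 3 of 6 dendritic cell, 1 of 5 NK cell, 2 of 5 neutrophil and 0 of 5 erythroid markers, while Lyz2, Cd14, Itgax, Xcr1, Ncr1 and Mpo were above background on 0 arrays. The T cell markers summed to a log2 signal of 11.60 to 12.17, the B cell markers to 18.23 to 18.61, the macrophage markers to 14.14 to 14.45 and the dendritic cell markers to 15.94 to 16.20. Siglech alone gave 15.66 to 16.03, close to the dendritic cell sum. The part of these cell types in the results below was not tested.

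The 2 probes of Ackr4 exceeded background on 0 arrays, which leaves both labels unchecked by the targeted gene. The authors' value table goes against the scanner files: within each experiment, its 4 columns fitted best with the genotypes exchanged. Over the 53 member probes above background on all arrays, the log2 difference had an SD of 0.012 to 0.0819 with that exchange and of 0.255 to 0.417 with the columns as labelled. Directions here follow the labels of the scanner files and turn round if the value table is right.

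Each probe is a 60-base DNA oligonucleotide. The probes used for Polr1c, Ncl, Npm1 and Rrp12 are printed 5′ to 3′ in lower case, to show what each signal was read from. Positions are on mm9. The Polr1c probe lies at chr17:46381120-46381264, the Ncl probe at chr1:88247953-88248012, the Npm1 probe at chr11:33052849-33054041 and the Rrp12 probe at chr19:41945749-41945925. The positions of the Polr1c and Npm1 probes span 145 and 1193 bases, more than the probe's length, as a probe across a splice junction does, and that of the Rrp12 probe is also longer than the probe.
Polr1c: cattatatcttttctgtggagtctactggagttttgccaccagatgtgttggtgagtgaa
Ncl: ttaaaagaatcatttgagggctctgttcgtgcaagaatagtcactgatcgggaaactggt
Npm1: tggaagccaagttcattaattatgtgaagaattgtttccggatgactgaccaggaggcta
Rrp12: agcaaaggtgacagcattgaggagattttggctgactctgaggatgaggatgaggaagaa

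The E-box was in a larger share of the members' promoters than of promoters at large. RefSeq start sites on GRCm38.p6, with a window of 300 bases (250 before the start and 50 after it), matched 35 of the 40 members in 38 windows (not Npm1, Bop1, Rrs1, Fbl and Rrp12). CACGTG, which reads the same on both strands, was present in 8 of the 38 (21.1%), against 7.15% of all 32851 windows, 15.8% of windows of other ribosome biogenesis genes and 11.8% of those of cytosolic ribosomal protein genes. The 8 genes were Mybbp1a, Nle1, Nop2, Pes1, Tsr1, Utp18, Utp20 and Wdr43. The ETS-type motif CGGAAG, searched on both strands, was in 20 of the 38 (52.6%) against 16.9% of all windows, 63.3% of the other biogenesis genes and 61.8% of the ribosomal protein genes. These shares are descriptions, and the member windows had a median GC content of 59.3% against 52.7% overall. The windows of 4 of these members show where the E-box, in capitals, lies: at bases 41 to 46 from the start for Mybbp1a (chr11:72441077-72441376, plus strand), -60 to -55 for Nop2 (chr6:125131633-125131932, plus strand), 3 to 8 for Pes1 (chr11:3963725-3964024, plus strand) and 18 to 23 for Wdr43 (chr17:71615965-71616264, plus strand).
Mybbp1a: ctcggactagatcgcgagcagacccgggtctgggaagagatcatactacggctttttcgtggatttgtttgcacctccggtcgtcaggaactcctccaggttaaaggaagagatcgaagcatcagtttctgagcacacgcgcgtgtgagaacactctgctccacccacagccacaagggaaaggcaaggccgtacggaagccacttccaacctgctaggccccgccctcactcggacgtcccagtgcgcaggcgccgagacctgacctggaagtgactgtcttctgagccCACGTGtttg
Nop2: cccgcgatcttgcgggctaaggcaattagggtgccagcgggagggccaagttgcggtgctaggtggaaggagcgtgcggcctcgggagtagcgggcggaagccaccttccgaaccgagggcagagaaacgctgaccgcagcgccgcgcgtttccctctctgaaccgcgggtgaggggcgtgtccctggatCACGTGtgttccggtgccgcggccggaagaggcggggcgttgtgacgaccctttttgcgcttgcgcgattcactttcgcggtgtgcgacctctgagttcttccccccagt
Pes1: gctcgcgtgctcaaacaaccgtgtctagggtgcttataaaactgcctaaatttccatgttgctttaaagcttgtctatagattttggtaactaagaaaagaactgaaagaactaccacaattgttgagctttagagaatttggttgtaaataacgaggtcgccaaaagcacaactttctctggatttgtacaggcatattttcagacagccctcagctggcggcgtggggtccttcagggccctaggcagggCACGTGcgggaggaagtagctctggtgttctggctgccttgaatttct
Wdr43: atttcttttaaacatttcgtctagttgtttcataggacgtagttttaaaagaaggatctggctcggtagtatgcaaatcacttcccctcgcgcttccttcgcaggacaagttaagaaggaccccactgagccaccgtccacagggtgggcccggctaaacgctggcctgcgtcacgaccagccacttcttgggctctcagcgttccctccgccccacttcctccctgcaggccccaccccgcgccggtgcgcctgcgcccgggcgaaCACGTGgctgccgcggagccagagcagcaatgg

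Between the genotypes, no single member passed the test, and most members had differences of opposite sign in the 2 experiments. In experiment 1 the array labelled Ackr4ko was below the array labelled WT for 32 of the 39 tested members. In experiment 2 it was above for 37 of 39. Of all tested genes, 34.5% were lower in experiment 1 and higher in experiment 2. Another 33% were higher in both and 20.9% lower in both. The members' median log2 difference, labelled Ackr4ko minus WT, was -0.13 in experiment 1, 0.57 in experiment 2 and 0.20 over both, against -0.04, 0.23 and 0.08 for all tested genes. The count called at a limma adjusted p under 0.05 was 0 of 39, with 0.0125% of all tested genes called, and the lowest adjusted p of a member was 0.999606.

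At an unadjusted limma p under 0.05 the count was also 0, against 4.59% of all tested genes. With the experiment as a block it was 0 at an adjusted p under 0.05, against 3.33% of all tested genes, and the lowest member value was Pes1's adjusted p of 0.0884. Without the block, the standard error of a member's difference ran from 0.32 to 0.50 (median 0.38), and the 95% interval reached 0.73 to 1.13 either side of it. Because the RNA came from whole cultures, fewer cells of a type and less RNA per cell cannot be told apart. Without the block, the p-values and intervals measure the spread between arrays of the same label. That spread holds the shift between experiments as well as the change of donors.

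Of the 39, 30 members were lower on the array labelled Ackr4ko in experiment 1 and higher in experiment 2 (76.9%, against 34.5% of all tested genes), and 0 showed the reverse order. Higher in both experiments were 7 members (17.9%), Polr1c, Ncl, Npm1, Ddx10, Wdr12, Noc2l and Ddx18, with 33% of all tested genes in that class. With the mean of a gene's tested probes in place of the brightest, the count was 4. In experiment 1, 3 of the 5 Npm1 probes and the second probe of Wdr12 were negative, and the second probe of Ncl was negative in both experiments. Lower in both were Pes1 and Noc3l, 5.13% of the members against 20.9% of all tested genes. The arrays of the genotypes did not overlap for 3 members, Ddx10, Wdr12 and Noc2l (7.69%, against 29% of all tested genes).

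**Figure D1:**
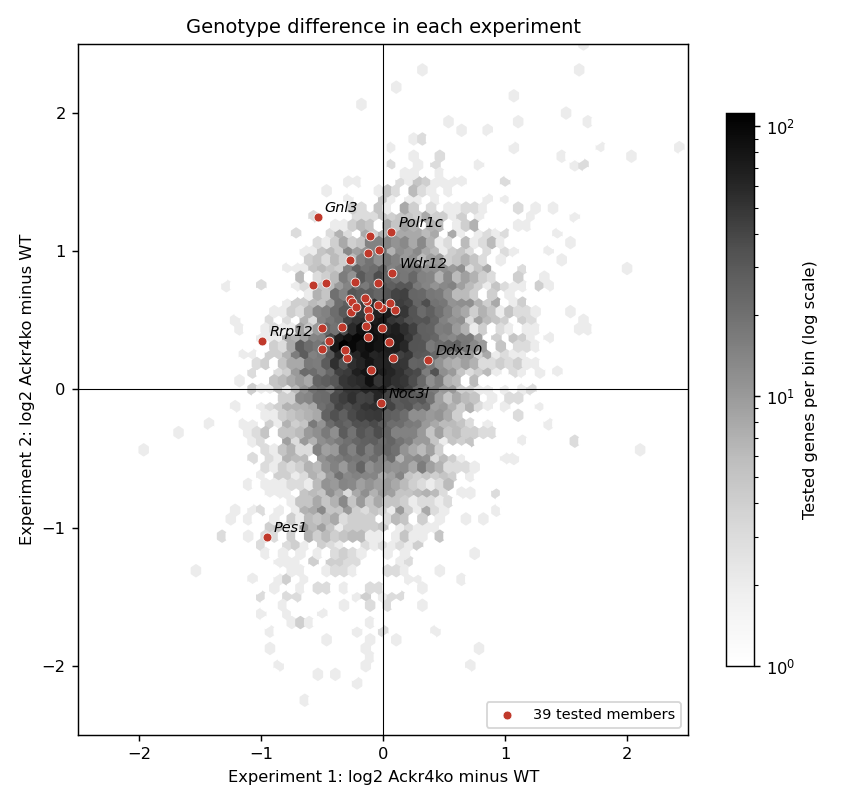
Log2 difference, labelled Ackr4ko minus WT, in experiment 1 (horizontal) and experiment 2 (vertical). Red points are the 39 tested members and grey bins count all tested genes, of which 148 of 15961 lie outside the axes. Of the members, 30 lie in the upper left field and 7 in the upper right.

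Array by array, the members had a shared pattern. WT replicate 2 gave the lowest signal for 32 of 39 members (82.1%, against 28.5% of all tested genes), and WT replicate 1 gave the highest for 22 (56.4%, against 28.7%). Relative to each gene's mean over the 4 arrays, the median member stood at 0.05 on Ackr4ko replicate 1, 0.27 on WT replicate 1, 0.08 on Ackr4ko replicate 2 and -0.41 on WT replicate 2. Without WT replicate 2, the array with the most outlier spots, the median genotype difference of the members was -0.18, and without WT replicate 1 it was 0.50. The part of array quality in this pattern was not tested.

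**Figure D2:**
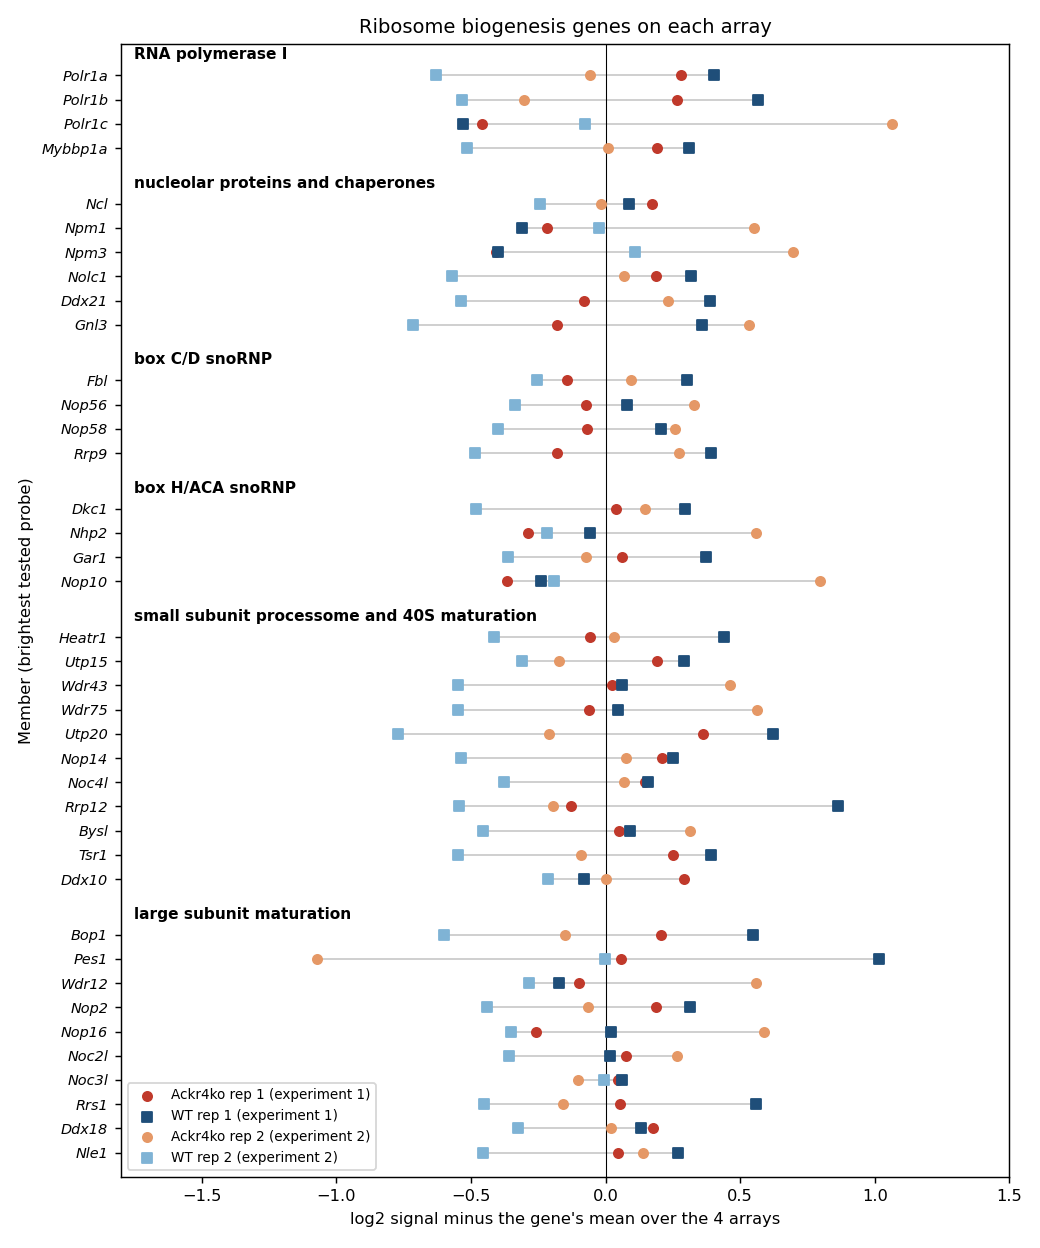
Log2 signal of each tested member on the 4 arrays, minus its mean over them, by role; circles are arrays labelled Ackr4ko, squares arrays labelled WT, and dark colours experiment 1. The light blue square, WT replicate 2, is the lowest point for 32 of 39 members.

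RNA polymerase I was represented by its catalytic subunits Polr1a and Polr1b, by Polr1c, which it shares with RNA polymerase III, and by Mybbp1a, a nucleolar Myb-binding protein. Polr1c gave log2 signals of 14.11 and 14.04 on the arrays labelled Ackr4ko and WT in experiment 1, and of 15.63 and 14.49 in experiment 2. The array labelled Ackr4ko was thus the higher in experiment 2, the values of experiment 1 were nearly equal, and the genotypes overlapped. The difference of 0.60 ± 0.50 (SE) had a limma adjusted p of 0.999606, as had each of the 39 tested members. Polr1a gave 11.46 and 11.59 in experiment 1 and 11.13 and 10.55 in experiment 2, a difference of 0.23. Polr1b gave 9.73 and 10.03, then 9.16 and 8.93, a difference of -0.03. Both catalytic subunits were lowest on WT replicate 2 and highest on WT replicate 1, unlike Polr1c, which was highest on Ackr4ko replicate 2. Mybbp1a differed by 0.20, with -0.12 in experiment 1 and 0.52 in experiment 2.

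Among the nucleolar proteins, Npm1 (nucleophosmin) and Npm3 are histone chaperones, Ncl (nucleolin) binds ribosomal RNA precursors, Nolc1 is a snoRNP chaperone, Ddx21 is an RNA helicase and Gnl3 (nucleostemin) is a nucleolar GTPase. Npm1 gave 17.00 and 16.90 on the arrays labelled Ackr4ko and WT in experiment 1, and 17.77 and 17.19 in experiment 2, a difference of 0.33. Gnl3 gave 10.74 and 11.28, then 11.45 and 10.20, a difference of 0.35, with -0.54 in experiment 1 and 1.25 in experiment 2. These differences of Gnl3 were the widest apart of any member, and its arrays overlapped. Npm3 differed by 0.29, Nolc1 by 0.25, Ncl by 0.16 and Ddx21 by 0.15. In experiment 1 each of these 4 lay between -0.47 and 0.08, and in experiment 2 between 0.23 and 0.77. By their brightest probes, all 6 members of the role were higher on the array labelled Ackr4ko in experiment 2. The other tested probes of Ncl and Nolc1 were lower there, by -1.17 and -0.18.

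The box C/D snoRNP core methylates ribosomal RNA: Fbl (fibrillarin) is the methyltransferase, Nop56 and Nop58 are its scaffold, and Rrp9 belongs to the U3 snoRNP, which acts in cleavage. Nop56 gave 14.35 and 14.50, then 14.75 and 14.09, a difference of 0.26. Nop58 gave 12.68 and 12.95, then 13.01 and 12.35, a difference of 0.19. Fbl gave 12.36 and 12.81, then 12.60 and 12.25, a difference of -0.05. In all 3 the array labelled WT was the higher in experiment 1 and the lower in experiment 2. Rrp9 ran the same way, with -0.57 and 0.76. Its probe (chr9:106386845-106387461, mm9) lies on chromosome 9, as do the probes of Ackr4 (chr9:104000864-104000923), and the part of sequence near the deleted gene in its value was not tested.

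Box H/ACA snoRNPs turn uridines of ribosomal RNA into pseudouridine. Their 4 core proteins are Dkc1 (dyskerin, the enzyme), Nhp2, Gar1 and Nop10. Nop10 gave 13.54 and 13.67 on the arrays labelled Ackr4ko and WT in experiment 1, and 14.71 and 13.72 in experiment 2, a difference of 0.43. Nhp2 gave 14.94 and 15.17, then 15.79 and 15.01, a difference of 0.27. Both were highest on Ackr4ko replicate 2, with the other 3 arrays close together. Gar1 gave 13.58 and 13.89, then 13.44 and 13.15, a difference of -0.01, and was highest on WT replicate 1. Dkc1 differed by 0.19, with -0.25 in experiment 1 and 0.63 in experiment 2.

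The small subunit group held processome subunits (Heatr1, Utp15, Utp18, Utp20, Wdr43, Wdr75, Nop14, Noc4l), the export factor Rrp12, the assembly factors Bysl and Tsr1, and the helicase Ddx10. All 11 tested members were lowest on WT replicate 2. Wdr75 gave 11.72 and 11.83, then 12.34 and 11.23, a difference of 0.50, and Wdr43 gave 11.86 and 11.89, then 12.29 and 11.28, a difference of 0.49. For both, experiment 1 showed near-equal arrays and experiment 2 a gap of 1.11 and 1.01. The second tested probe of Wdr43 gave a gap of 0.39 in experiment 2. Heatr1 gave 13.09 and 13.59, then 13.19 and 12.74, a difference of -0.03. Rrp12 gave 7.10 and 8.09, then 7.03 and 6.68, a difference of -0.32, and did not pass the background test on WT replicate 2. Its highest array was WT replicate 1.

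The other tested members of the group differed by 0.36 (Bysl), 0.29 (Nop14), 0.29 (Ddx10), 0.22 (Noc4l), 0.16 (Tsr1), 0.15 (Utp20) and 0.02 (Utp15). Ddx10 was the only one of the 11 higher on the array labelled Ackr4ko in both experiments, by 0.37 and 0.21. Utp18, the untested member, gave 3.40 and 4.39 in experiment 1 and 3.42 and 4.64 in experiment 2, and passed the background test on 0 arrays. The lowest log2 signals well above background were 3.83 and 4.31 on Ackr4ko and WT replicate 1, and 4.60 and 5.84 on Ackr4ko and WT replicate 2. On WT replicate 1 Utp18 lay above that value, at 4.39, and still failed the test. These values therefore set no bound for its probe, and no fold is given.

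Large subunit maturation was covered by Pes1, Bop1 and Wdr12, which form the PeBoW complex, by the methyltransferase Nop2, by Nop16, by Noc2l and Noc3l of the Noc family, by Rrs1, by the helicase Ddx18 and by Nle1. Pes1 gave 10.53 and 11.49 on the arrays labelled Ackr4ko and WT in experiment 1, and 9.40 and 10.47 in experiment 2. It was lower on the array labelled Ackr4ko in each experiment, by 0.96 and 1.07 in log2, while Ackr4ko replicate 1 lay above WT replicate 2 and the genotypes overlapped. In the fit without a block, the difference was -1.01 ± 0.49 (SE). Its limma p of 0.0679, with an adjusted p of 0.999606, was the smallest p of the members. With the experiment as a block, the limma p of Pes1 was 0.0036 and the adjusted p 0.0884. Wdr12 gave 12.51 and 12.44, then 13.17 and 12.33, a difference of 0.46. Noc2l gave 12.44 and 12.39, then 12.64 and 12.01, a difference of 0.34.

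For Wdr12 and Noc2l both arrays labelled Ackr4ko exceeded both labelled WT, by small margins in experiment 1. Rrs1 gave 10.06 and 10.57, then 9.85 and 9.56, a difference of -0.11. Nop16 differed by 0.33, Ddx18 by 0.20, Nle1 by 0.19, Nop2 by 0.12, Bop1 by 0.05 and Noc3l by -0.06. By their brightest probes, the PeBoW members differed in sign: Pes1 was lower on the arrays labelled Ackr4ko in both experiments, Wdr12 higher in both, and Bop1 at -0.34 and 0.45. The other tested probes of Pes1 (-0.28, then 0.08) and Wdr12 (-0.45, then 0.05) ran in the order of Bop1, lower in experiment 1 and higher in experiment 2.

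A second probe of Pes1 gave another picture. The brighter probe (chr11:3879948-3880007, mm9) has the values above. The other (chr11:3873303-3873362, mm9) gave 8.31 and 8.59 on the arrays labelled Ackr4ko and WT in experiment 1, and 8.82 and 8.74 in experiment 2, a difference of -0.10 and a gap of 0.91 from the first. Its sequence, printed in full, has no such repeat as the brighter probe holds: that probe carries the same 22-base run in 2 copies, at bases 1 to 22 and 39 to 60, with 1 difference, C13T (first copy C at base 13 of the run, second copy T, counted from the run's 5′ end, in capitals). A repeat of that length with at most 1 mismatch is in 50 of 39429 probes (0.127%) and in 1 probe of the members. What the repeat does to the signal was not tested.
Pes1, other probe: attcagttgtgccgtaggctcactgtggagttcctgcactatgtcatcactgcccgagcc
Pes1, brighter probe, first copy: aagtatgtatggCtcacacttc
Pes1, brighter probe, second copy: aagtatgtatggTtcacacttc

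In all, 11 members had at least 2 tested probes. The genotype difference had the same sign in 8 of them, among them Npm1, whose 5 probes gave 0.12 to 0.38, and Nop56, whose 3 gave 0.12 to 0.28. The sign was opposite in 3, each with a gap of at least 0.5: Ncl (0.16 from the brighter probe and -0.86 from the other), Nolc1 (0.25 and -0.28) and Wdr12 (0.46 and -0.20). The other probe gave log2 signals of 7.05 to 8.79 for Ncl, 7.13 to 8.46 for Nolc1 and 9.38 to 10.06 for Wdr12. The brighter gave 14.90 to 15.31, 11.89 to 12.78 and 12.33 to 13.17. Each of these probes passed the background test on all 4 arrays. The median gap over the 11 was 0.26 and the widest, of Ncl, 1.01. Polr1b has a second probe, which was above background on 0 arrays.

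**Figure D3:**
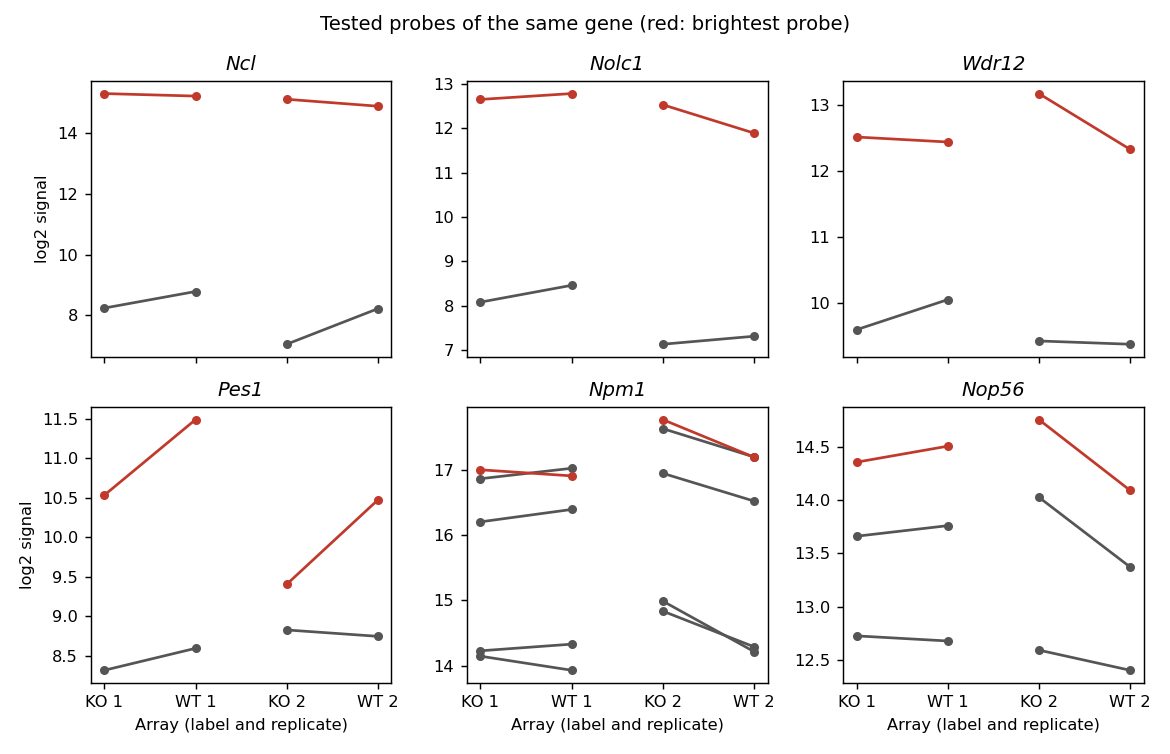
Log2 signal of each tested probe of 6 members on the arrays labelled Ackr4ko (KO) and WT, replicates 1 and 2; red is the brightest probe, and lines join the arrays of 1 experiment. The lines slope in different directions for the 2 probes of Ncl, and run alike in experiment 2 for the 5 probes of Npm1.

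Between the experiments, the median member was lower in experiment 2 by 0.31 in log2 (-0.31, against 0.02 for all tested genes), and 31 of the 39 were lower (79.5%, against 48.2% of all tested genes). With no genotype term the count called was 0, as it was over all tested genes, with the lowest member adjusted p at 0.504 (limma). Unadjusted limma p-values under 0.05 were found for 9.81% of all tested genes and for 5 members: Polr1c and Npm3, higher in experiment 2 by 0.99 and 0.81, and Utp20, Polr1b and Bop1, with -0.98, -0.83 and -0.75. With genotype as a term, 1 member was called, Pes1, at a limma adjusted p of 0.0496 and a difference of -1.07, with 4.07% of all tested genes called. Its second probe gave 0.33, of the opposite sign. Without WT replicate 2, the median member difference between experiments was -0.08.

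The arrays of the 2 experiments did not overlap for 22 members (56.4%, against 47.7% of all tested genes), with experiment 2 higher for Polr1c, Npm1, Npm3 and Nop10 and lower for the other 18. The subunits of RNA polymerase I went apart here. Polr1c was above both arrays of experiment 1 on both arrays of experiment 2, while Polr1a (-0.69) and Polr1b (-0.83) were below on both. The 5 members with the shortest genes, Nop10, Npm3, Rrs1, Nhp2 and Polr1c, had values of 0.60, 0.81, -0.61, 0.34 and 0.99. Over the 39 members the Spearman correlation of this difference with the length of the gene on the genome was -0.36, against -0.15 over 12848 tested genes with a length. This is a description across genes, which share the same 4 arrays.

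Other ribosome biogenesis genes, from a list of 126 with 123 tested, had a median genotype difference of 0.20, with -0.10 in experiment 1 and 0.46 in experiment 2, and 0 were called by limma. Higher in both experiments were 40 (32.5%, against 33% of all tested genes and 17.9% of the members). Lower in both were 11 (8.94%, against 20.9% of all tested genes), and 72 were of opposite sign (against 7362 of all 15961 tested genes). Between experiments their median was -0.10. The 3 with the largest values of the same positive sign were Pa2g4 (0.71), a growth-regulated nucleolar protein, Rrp1b (0.68) and Mphosph6 (0.66), an exosome-associated protein, and the 3 with the most negative were Rbm34 (-0.52), Senp3 (-0.34), a SUMO protease, and Ddx54 (-0.33), an RNA helicase. On these genes WT replicate 2 stood at -0.25 relative to the mean of the 4 arrays and Ackr4ko replicate 2 at 0.18.

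Cytosolic ribosomal protein genes, the products that these factors assemble, followed another order of the arrays. Of 78 tested of 79 listed, 77 were lowest on Ackr4ko replicate 1 (against 3806 of all 15961 tested genes). On Ackr4ko replicate 2, 77 were highest (against 7238 of all tested genes). The ribosomal protein median stood at -0.33, -0.04, 0.36 and 0.01 on Ackr4ko replicate 1, WT replicate 1, Ackr4ko replicate 2 and WT replicate 2. The genotype difference was -0.29 in experiment 1, 0.34 in experiment 2 and 0.03 over both, and 0 were called by limma. In sign, 76 of 78 differed between the experiments, against 7362 of all 15961 tested genes. Between experiments the ribosomal protein median was 0.37, with 0 of 78 lower in experiment 2, whereas 31 of 39 members were lower. This difference between the 2 lists was not tested.

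**Figure D4:**
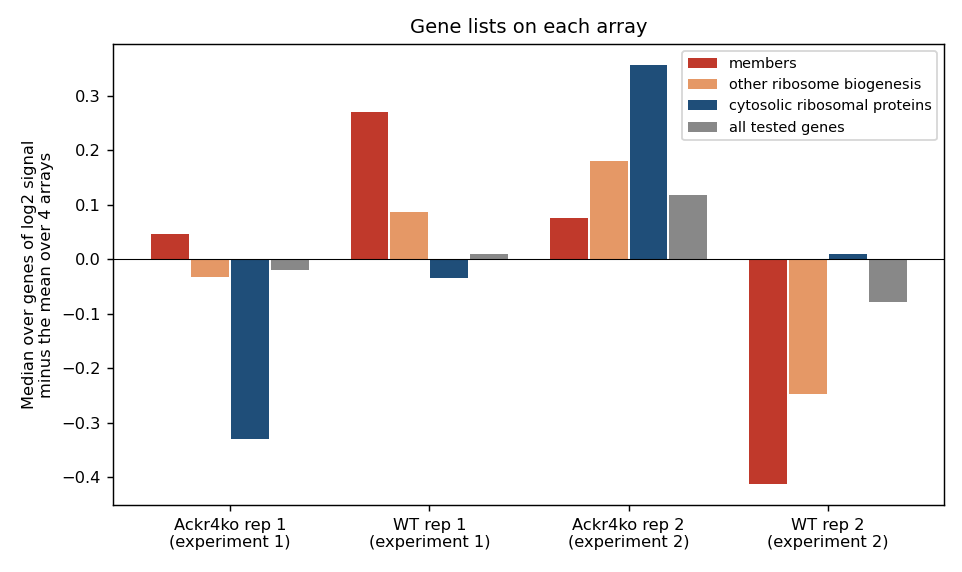
Median over the genes of each list of log2 signal minus the gene's mean over the 4 arrays, for members, other ribosome biogenesis genes, cytosolic ribosomal proteins and all tested genes; bars start at 0 and have no error, since each is 1 array. The members are lowest on WT replicate 2 (-0.41) and the ribosomal proteins on Ackr4ko replicate 1 (-0.33).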

How the data were processed

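Total RNA of 4 samples was hybridised to Agilent 1-colour arrays, with Cy3 labelling. The deposited scanner files hold spot intensity made with Agilent Feature Extraction (version 10.7.3.1 in the submitters' processing notes). Other columns, per the file headers, flag outlier spots, saturated spots and spots bright enough against their background. The value table holds normalized intensity that the authors deposited without stating the method. Samples were grouped by the genotype in the labels and by experiment from the sample titles, and the p-values measure the spread between these arrays.

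Log2 of the processed signal was taken after control and outlier spots were left out, and the 4 spots of a probe were averaged. The log2 of each array's 75th percentile was then subtracted (the mean of the 4 percentiles was added back). That percentile was taken over all spots other than controls, with outlier spots kept. Probes entered the fit when 50% or more of their spots passed the well-above-background flag on 2 or more arrays, and the brightest such probe stood for its gene. Names came from RefSeq accessions for 28328 probes, from symbols for 3070, from other accessions for 429, from synonyms for 221 and from the array alone for 7381.

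Genotypes and experiments were compared by linear models with moderated variance (limma 3.58.1, R 4.3.3), two-sided. Adjustment of p-values was by Benjamini-Hochberg over all tested genes, with a threshold of 0.05. The fit was also run on simulated arrays with no experiment effect and with changes larger than any member's. That run does not cover differences of the members' size. The replicate numbers mark the 2 experiments stated in the design text, so they pair the arrays. Deviations of arrays of the same experiment from the group means correlated at 0.421 over 15961 genes. The main fit had no block. Standard errors, intervals and p-values given here ignore this pairing except where a block or a genotype term is named. Alternatives were the scaling, background, probe and filter choices, the value table, a block and leaving out each array. Values on every array are given for the 2 members with the smallest p in each direction of each role, for called members and for members not above background on some array, and probes are named where they differ in sign and by at least 0.5. The members and lists were chosen with earlier results of these data known.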

Additional observations from a re-analysis of the deposited data

How the results depend on the processing

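The median genotype difference of the members, 0.20, stayed positive under quantile normalization (0.11), median scaling (0.13), normexp background (0.19), no filter on dim probes (0.20), a filter on all 4 arrays (0.20), the mean of a gene's tested probes (0.19) and, chosen after seeing the data, the 75th percentile over probe means (0.13). With the value table's own column labels, which fitted best with the genotypes exchanged, it was -0.0945. Leaving out each array gave -0.18 (without WT replicate 2) to 0.50 (without WT replicate 1). The 7 members higher in both experiments became 4 with the mean of probes, 1 with the value table, 9 with median scaling and 8 with normexp background; leaving out an array gives no such count. The experiment difference ran from -0.55 to -0.08 when each array was left out, and its count of calls, 0, became 1 (Pes1) with genotype as a term. Members called between genotypes were 0 under each setting tried, including the replicate block (0, lowest adjusted p 0.0884 by limma) and, added later, the block with quantile normalization (0, lowest 0.459). Signs of single members changed for 3 of 39 under quantile normalization, 2 under normexp and 18 without WT replicate 2. They changed for 36 under the value table, whose columns fitted best with the genotypes exchanged. The cause of the sign changes in the other settings was not tested. With 2 arrays a group, the 95% interval of a member's difference reached at least 0.73 in log2, and Utp18 was below background.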
